A study of Citrus sinensis with 72 samples.

Results

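The juice sac (JS) of the ‘Fengjie 72-1’ navel orange (Citrus sinensis) was compared between stage 5 (JS5, 180 days after flowering, DAF, the colouring period) and stage 4 (JS4, 150 DAF by the sample labels, late in the expansion period). The study's methods give a slightly later day for stage 4. A gene was taken when 3 or more of the 6 libraries listed it at 1 FPKM or above (fragments per kilobase of gene, scaled to the fragments of the library). These were 15016 of the 30940 genes of the table. Of the rest, 8347 genes were listed at 0 in all 6 libraries. The series holds 72 libraries of 4 hand-dissected tissues, namely the JS, the segment membrane (SM, the wall around each segment), the albedo (AL, the white inner peel) and the epicarp (EP, the coloured outer peel), at 6 stages with 3 biological replicates each. The trees were of 1 cultivar, on the same rootstock and in 1 orchard, and carried no treatment. Each replicate mixed fruits of 3 trees, and the same trees gave both stages and all 4 tissues. Gene IDs are given as the table has them: 0 of them matched the reference table at hand, so no gene below has a name or a known role.

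Juice sacs are stalked vesicles that grow from the inner face of the segment wall and fill the segment. The vacuoles of their large cells take up protons and citrate during expansion. The cells then store sucrose, glucose and fructose while the acid declines, and in orange-fleshed cultivars their plastids build up carotenoids. The orange is a nonclimacteric fruit, which ripens without a burst of ethylene, and the colouring period is when the peel loses chlorophyll. The comparison asks which transcripts of the juice-storing tissue differed between the end of expansion and the start of colouring.

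The JS5 libraries held 21849647, 18971540 and 20541445 fragments and the JS4 libraries 19640199, 19203394 and 19752917, as recovered from the steps of the FPKM values. Between 14044 and 14860 genes reached an FPKM of 1 in the JS5 libraries, against 14767 to 14962 in the JS4 libraries (exact permutation test, two-sided, p = 0.2; 3 libraries against 3 cannot go below 0.1). A library of each group stood apart from its replicates. JS5 replicate 3 correlated with the other JS5 libraries at r = 0.972 and 0.950, where those 2 correlated at 0.991 (Pearson's r across the 15016 genes of log2(FPKM + 1)). JS4 replicate 1 correlated with the other JS4 libraries at 0.962 and 0.954, where those 2 correlated at 0.989. By the sequencing records, the RNA integrity number was lower in JS4 replicates 1 and 2 than in every JS5 library, the GC content was higher in each JS5 library, and the mapped share was higher in each JS4 library. The JS4 libraries also fill the last 3 columns of the deposited table. The part of these differences in the results was not tested.

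Of the 15016 genes, 2257 (15.0%) differed between JS5 and JS4 at an adjusted p under 0.05 (limma on log2(FPKM + 1), Benjamini-Hochberg over all genes tested), and 4621 had an unadjusted p under 0.05. In JS5, 995 genes were higher (6.63% of those tested) and 1262 were lower (8.4%). The change was at least 2-fold for 429 of the higher genes and for 652 of the lower genes. It reached 2 on the log2 scale, a 4-fold change, for 54 higher and 120 lower genes, and it reached 4 for 1 higher and 8 lower genes. Among called genes whose mean was at least 100 FPKM in the group where they were higher, 180 rose and 141 fell. The genes tested at that level were not counted, so these counts cannot be set beside the shares over all genes. The JS5 and JS4 values did not overlap for 5435 of all genes tested (36.2%), and the 2257 called genes were all among them. The median change over all genes tested was -0.11. With the libraries rescaled by their median ratio to the geometric mean library, that median was 0.00, and 2254 genes were called, 1257 higher and 997 lower, so the larger number of lower genes was not kept under that scaling. Of the genes called on FPKM as deposited, 945 higher and 960 lower genes were called after it and none changed sign. In bulk tissue, fewer cells of a type and less RNA per cell cannot be told apart.

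The number of calls moved with single libraries. Without JS5 replicate 1 it was 490, without JS5 replicate 2 it was 1101, without JS4 replicate 2 it was 632 and without JS4 replicate 3 it was 807. Without JS5 replicate 3 there were 3152 calls, and without JS4 replicate 1 there were 2413. A set of 422 genes, 195 higher and 227 lower, was called in all 6 of these fits, with a median absolute change of 1.60 and a lowest of 0.83 on the log2 scale. A gene that was not tested in a fit counted as not called there. Genes that passed the FPKM filter through a single group could thus not be in this set. When JS5 replicate 3 and JS4 replicate 1 were both left out, a choice made after the data were seen and one that narrows the spread by construction, 7116 of 14030 genes (50.7%) were called, 2283 higher and 4833 lower. Of the original calls, 882 higher and 1045 lower genes were still called there, 112 and 197 were not tested, and none changed sign.

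**Figure D1:**
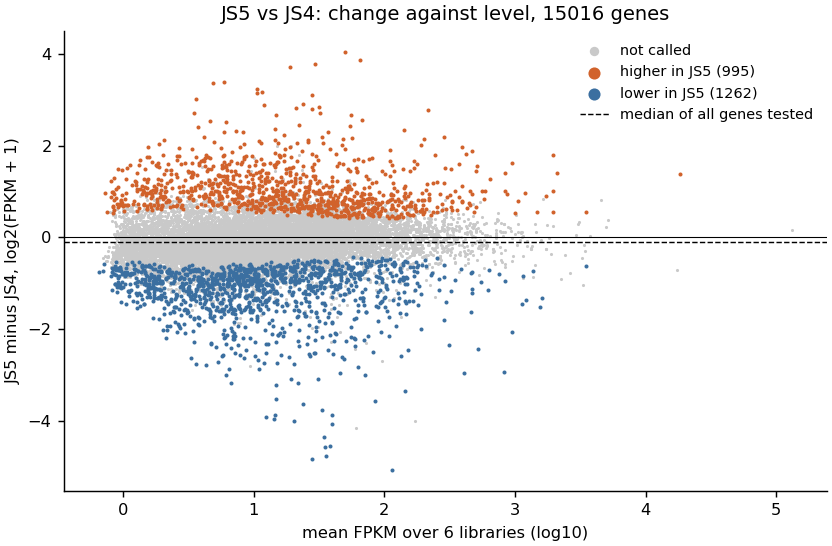
Difference between JS5 and JS4 in log2(FPKM + 1) on the vertical axis, against the mean FPKM over the 6 libraries on a log10 scale, for the 15016 genes tested (1 point a gene). The 995 genes higher in JS5 and the 1262 lower in JS5 are coloured, the dashed line is the median of all genes (-0.11), and the lower genes reach further (-5.07) than the higher ones (4.04).

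The 2 genes with the highest change among those with a mean of at least 10 FPKM were Cs3g15460 and Cs7g28370. Cs3g15460 had 108, 91.2 and 84.4 FPKM in JS5, against 7.67, 4.77 and 2.83 FPKM in JS4. Its lowest JS5 library was thus far above its highest JS4 library, and its change was 4.04 ± 0.29 (SE, log2 scale; adjusted p = 0.00103, limma). Cs7g28370 had 97.3, 156 and 118 FPKM in JS5 and 10.2, 5.69 and 6.67 FPKM in JS4, a change of 3.88 ± 0.25 (adjusted p = 0.000912, limma). Both genes were called in all 6 fits that left out a library. A single called gene, orange1.1t01983, was under 1 FPKM on average in JS4 and at or above 10 in JS5 (named after its values were seen). It had 9.06, 14.6 and 11.6 FPKM in JS5 and 0.119, 0.218 and 0.236 FPKM in JS4. This gene passed the FPKM filter through the JS5 libraries alone, so it was not tested when any JS5 library was left out.

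The 2 genes with the lowest change were Cs2g22800 and Cs5g04980. Cs5g04980 had 1.25, 1.15 and 0.488 FPKM in JS5, against 62.0, 60.7 and 42.6 FPKM in JS4, a change of -4.84 ± 0.24 (adjusted p = 0.000818, limma). Its JS5 libraries were all below 2 FPKM, while every JS4 library was above 40. Cs2g22800 had 2.09, 1.92 and 19.0 FPKM in JS5 and 133, 123 and 412 FPKM in JS4, a change of -5.07 ± 0.80 (adjusted p = 0.00892, limma). Replicate 3 was the highest of its group at both stages, and the groups were still apart. Both genes were called in all 6 fits that left out a library. The added 1 in log2(FPKM + 1) makes these changes smaller than the ratio of the FPKM values, most of all for a gene near 1 FPKM. Counting Cs5g04980, 10 called genes were under 1 FPKM on average in JS5 and between 10.2 and 55.1 FPKM on average in JS4.

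**Figure D2:**
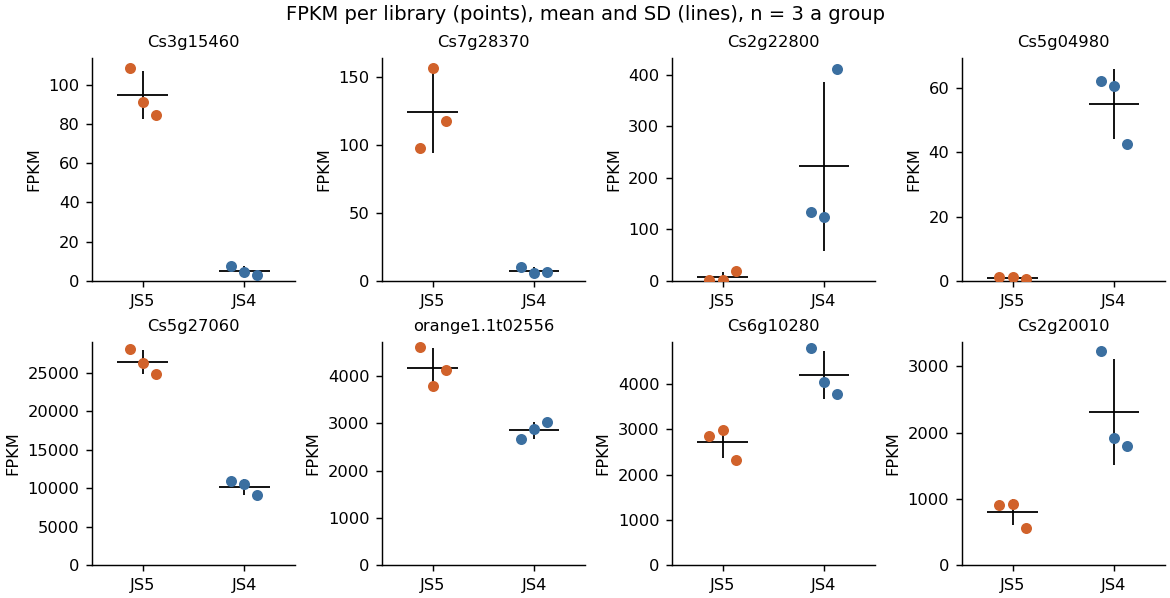
FPKM of the 3 JS5 and 3 JS4 libraries (points, in order of replicate number), with the group mean and SD (lines), for the 4 genes with the highest and lowest changes (upper row) and the 4 called genes with the highest levels (lower row); each vertical axis starts at 0. The rule that chose the 8 genes required that their JS5 and JS4 points not overlap. The gap is wide in the upper row and narrow for orange1.1t02556 and Cs6g10280.

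The most strongly expressed gene among those called was Cs5g27060, whose length implied by the FPKM steps was 408 bases. It had 28043, 26309 and 24881 FPKM in JS5, against 10944, 10472 and 9038 FPKM in JS4, and rose by 1.38 ± 0.16 (SE, log2 scale; adjusted p = 0.00299, limma). Cs5g27060 was called in all 6 fits that left out a library. The next strongest rising gene, orange1.1t02556, had 4620, 3783 and 4138 FPKM in JS5 and 2660, 2873 and 3020 FPKM in JS4 (0.55 ± 0.14, adjusted p = 0.0445, limma). Among falling genes the highest levels were those of Cs6g10280, with 2851, 2990 and 2322 FPKM in JS5 and 4808, 4044 and 3780 FPKM in JS4 (-0.63 ± 0.17, adjusted p = 0.0458, limma). Neither orange1.1t02556 nor Cs6g10280 was called in any of the 6 fits that left out a library or after median-ratio scaling (adjusted p = 0.0813 and 0.249, limma). Cs2g20010 had 913, 920 and 565 FPKM in JS5, against 3232, 1910 and 1798 FPKM in JS4 (-1.51 ± 0.29, adjusted p = 0.0160, limma). Its call was lost without JS5 replicate 1 (adjusted p = 0.0584, limma) or without JS4 replicate 2 (adjusted p = 0.0530, limma).

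The 20 genes with the highest mean FPKM in the JS libraries of the other 4 stages gave 2 higher (Cs5g27060 and orange1.1t02556) and 4 lower genes, with a median change of -0.23, beside 6.63% higher and 8.4% lower and a median of -0.11 over all genes. The 4 that fell were Cs6g10280, Cs2g20010, Cs7g23510 and orange1.1t06019. Cs7g23510 had 894, 1161 and 727 FPKM in JS5 and 2712, 2200 and 1989 FPKM in JS4, a change of -1.32 (adjusted p = 0.00909, limma). The fall of orange1.1t06019 was -2.06 (adjusted p = 0.00806, limma), with 416, 397 and 262 FPKM in JS5 and 2325, 1204 and 1129 FPKM in JS4. Cs1g07330 was the highest gene in each of the 6 libraries and took 19.1%, 18.6% and 14.6% of the summed FPKM in JS5, against 19.9%, 13.3% and 14.7% in JS4. The groups of this gene overlapped, and its change was 0.16 ± 0.28 (adjusted p = 0.739, limma). Its share was high in JS5 replicates 1 and 2 and in JS4 replicate 1.

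To see how the change fitted the longer course, JS6 (220 DAF, full ripening) was compared with JS3 (120 DAF, expansion), in libraries that JS5 vs JS4 does not use, though from the same trees. Of 15101 genes tested, 8759 (58.0%) were called, 5043 higher in JS6 (33.4%) and 3716 lower (24.6%). Of the 995 genes higher in JS5, 971 were tested there, and 828 of them (85.3%) were higher in JS6 and 14 lower. Of the 1262 genes lower in JS5, 1172 were tested, and 936 (79.9%) were lower in JS6 and 22 higher. The median change from JS3 to JS6 was 1.24 for the genes higher in JS5 and -1.29 for the genes lower in JS5. For most of the called genes the direction between stages 4 and 5 was thus also the direction over the longer interval. That interval contains the step that chose the genes, so such agreement was favoured in advance. The 33.4% and 24.6% over all genes are therefore no fair background for these shares.

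Over the whole course, the genes higher in JS5 lay below their JS4 level at stages 1, 2 and 3, with medians of -0.37, -0.50 and -0.22 on the log2 scale, and 0.99 above it at stage 6. The genes lower in JS5 lay at medians of 0.51, 0.23 and -0.10 at stages 1, 2 and 3, and at -1.38 at stage 6. All genes tested had medians of 0.07, -0.19 and -0.17 at stages 1, 2 and 3, and of -0.03 at stage 6. These medians are a description, since the JS4 libraries that serve as the base also chose the genes.

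**Figure D3:**
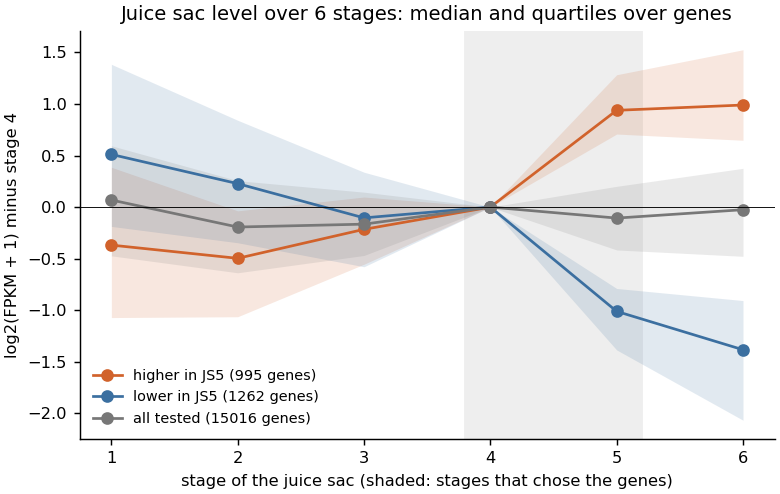
Level of the juice sac at stages 1 to 6 (50, 80, 120, 150, 180 and 220 DAF by the labels) relative to stage 4, in log2(FPKM + 1): median over genes (points and lines) and quartiles (bands) for the 995 genes higher in JS5, the 1262 lower in JS5 and all 15016 tested; stages 4 and 5, which chose the genes, are shaded. The higher genes reach a median of 0.94 at stage 5 and 0.99 at stage 6, and the lower genes reach -1.01 and -1.38.

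A few genes went against the longer course. Cs2g17260 rose to 11.9, 9.16 and 12.6 FPKM in JS5, against 3.94, 4.44 and 5.85 FPKM in JS4 (1.09 ± 0.21, adjusted p = 0.0150, limma), but it was lower in JS6 than in JS3 by 0.72 on the log2 scale (adjusted p = 0.0158, limma). Its mean was 21.1 FPKM at stage 2 and 14.3 FPKM at stage 3, so JS4 was the low point of the 6 stages. Cs7g32220 had a like course, with 17.3, 15.4 and 28.2 FPKM in JS5 and 10.6, 10.1 and 7.79 FPKM in JS4 (0.99 ± 0.25, adjusted p = 0.0400, limma), after means of 35.2, 36.0 and 44.7 FPKM at stages 1, 2 and 3, and its change from JS3 to JS6 was -2.05. Cs3g21170 fell to 178, 137 and 162 FPKM in JS5, against 307, 493 and 491 FPKM in JS4 (-1.41 ± 0.22, adjusted p = 0.00825, limma). It was higher in JS6 than in JS3 by 1.74, and its group means alternated over the 6 stages, with 131, 342, 97.6, 430, 159 and 338 FPKM from stage 1 to stage 6. Cs4g02570 had 3.14, 4.49 and 8.04 FPKM in JS5 and 11.3, 12.6 and 15.8 FPKM in JS4 (-1.25 ± 0.30, adjusted p = 0.0335, limma), and its change from JS3 to JS6 was 1.15, with a mean of 1.42 FPKM in JS3. The call of Cs2g17260 was lost without JS5 replicate 1 or JS4 replicate 2, that of Cs7g32220 without JS5 replicate 1 or any of the JS4 libraries, and that of Cs4g02570 without any library but JS5 replicate 3.

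Whether the change was particular to the JS was tested as the difference between its change and that of each other tissue between the same stages, in 1 fit of the 24 libraries of stages 4 and 5 (18109 genes; median SE of a difference 0.305). The change differed from that of the SM for 50 genes (0.276%), 15 larger in the JS (0.0828%) and 35 smaller (0.193%), where larger means more positive on the log2 scale and 1332 genes had an unadjusted p under 0.05. It differed from that of the AL for 1324 genes (7.31%), 580 larger (3.2%) and 744 smaller (4.11%), and from that of the EP for 1535 genes (8.48%), 1064 larger (5.88%) and 471 smaller (2.6%). Of the 2257 genes called in the JS, 30 differed from the SM (1.33%), 380 from the AL (16.8%) and 413 from the EP (18.3%). These shares lean on the same JS libraries that called the genes. A difference that was not called does not show that 2 tissues changed alike.

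The changes of the JS and the SM ran together across genes (Pearson's r = 0.784 over 15016 genes), more closely than those of the JS and the AL (0.615) or the JS and the EP (0.551). Genes are no independent replicates, and the tissues came from the same fruits. The genes higher in JS5 had median changes of 0.87 in the SM, 0.81 in the AL and 0.49 in the EP, with the same sign in 98.2%, 89.3% and 81.9% of them. The genes lower in JS5 had median changes of -0.79 in the SM, -0.81 in the AL and -0.67 in the EP, with the same sign in 95.6%, 88.4% and 89.9%. Over all genes tested the same sign was found for 80.3% in the SM, 66.3% in the AL and 69.4% in the EP.

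**Figure D4:**
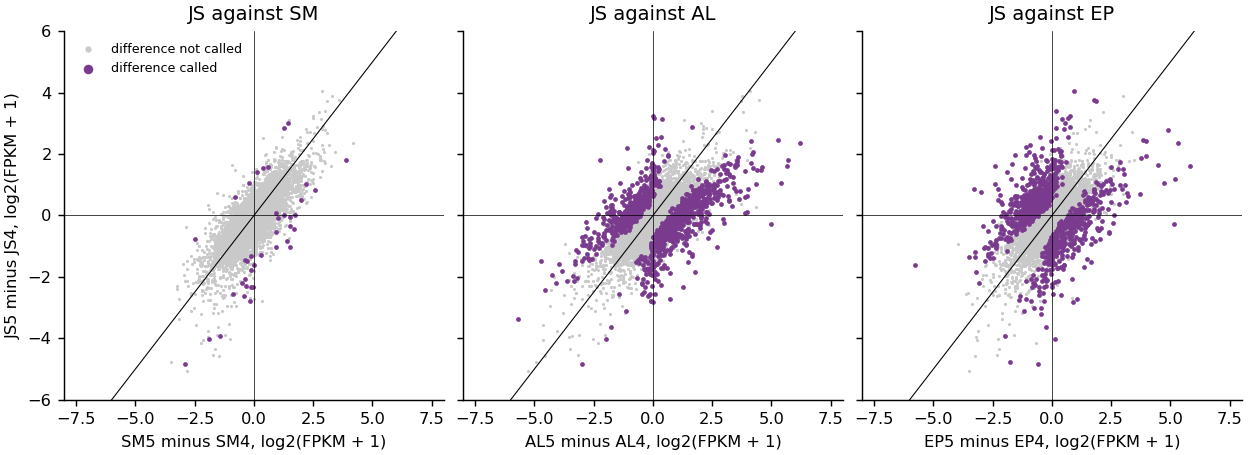
Change from stage 4 to stage 5 in log2(FPKM + 1) in the JS (vertical axis) against that in the SM, AL and EP (horizontal axes), 1 point a gene; purple points are genes whose 2 changes differed at an adjusted p under 0.05, and the diagonal marks equal changes. The points lie closest to the diagonal for the SM, with 50 genes called over all genes of the fit, against 1324 for the AL and 1535 for the EP.

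In 5 called genes the JS change and the SM change had opposite signs, with a called difference. Cs6g17190 was the largest of these, with 13.6, 15.4 and 11.0 FPKM in JS5 and 20.9, 29.7 and 34.8 FPKM in JS4, but 32.8, 21.7 and 22.0 FPKM in SM5 and 4.85, 10.1 and 10.3 FPKM in SM4. The difference between its JS change and its SM change was -2.55 ± 0.49 (adjusted p = 0.0215, limma). The call of this difference was lost without JS5 replicates 1 or 3, JS4 replicates 2 or 3, SM5 replicate 1 or SM4 replicate 1. The JS5 vs JS4 call of Cs6g17190 was lost without JS5 replicate 1 or JS4 replicates 2 or 3. The change of Cs6g17190 was 2.72 in the AL and -2.80 in the EP, so its direction varied over the 4 tissues. The other 4, named after their values were seen, were Cs1g02900, Cs6g11720 and Cs7g04900, which fell in the JS with SM changes of 0.31, 0.92 and 0.01 (the JS call of Cs7g04900 was lost without JS5 replicate 1), and Cs9g06210, which rose in the JS with an SM change of -0.20. The SM changes of these genes were taken by their sign, were not tested on their own and in part lay near 0. The same count over all genes was not made. The largest positive difference among called genes with at least 10 FPKM in some group was that of Cs2g28140, which fell less in the JS than in the SM. It had 3.68, 3.27 and 2.96 FPKM in JS5 and 6.74, 6.27 and 6.06 FPKM in JS4, beside 2.12, 1.32 and 1.20 FPKM in SM5 and 11.6, 13.7 and 14.7 FPKM in SM4 (difference 1.73 ± 0.31, adjusted p = 0.0148, limma). That call was lost without JS5 replicate 1 or SM5 replicate 2. The JS5 vs JS4 call of Cs2g28140 was found in 2 of the 6 fits that left out a library.

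Against the AL, Cs3g25010 had the largest positive difference. It had 629, 639 and 715 FPKM in JS5 and 169, 190 and 201 FPKM in JS4, against 4.06, 6.76 and 4.81 FPKM in AL5 and 19.3, 42.0 and 26.5 FPKM in AL4 (difference 4.06 ± 0.40, adjusted p = 5.69e-06, limma). Its level in the EP was low at both stages, between 1.04 and 2.93 FPKM, while in the SM it had 249, 143 and 163 FPKM in SM5 and 54.0, 30.0 and 33.0 FPKM in SM4. Cs7g27685 had the largest negative difference: it had 54.1, 63.8 and 92.1 FPKM in JS5 and 32.7, 30.2 and 33.8 FPKM in JS4, against 117, 188 and 83.0 FPKM in AL5 and 1.25, 1.80 and 2.76 FPKM in AL4 (difference -4.36 ± 0.49, adjusted p = 1.51e-05, limma). The 2 tissues thus moved the same way, from very different starting levels. The JS5 vs JS4 call of Cs7g27685 was lost without JS4 replicates 2 or 3, and its difference from the AL was called in each fit that left out a library. Of the 380 called genes whose change differed from that of the AL, 68 rose in the JS with a negative AL change. Another 82 fell in the JS with a positive AL change. The AL changes were taken by their sign only and were not tested on their own. The same count over all genes was not made.

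Against the EP, Cs5g25590 had the largest positive difference. It had 0.821, 0.946 and 0.356 FPKM in JS5 and 4.70, 3.84 and 4.04 FPKM in JS4, against 10.9, 4.95 and 5.80 FPKM in EP5 and 294, 442 and 595 FPKM in EP4 (difference 4.15 ± 0.36, adjusted p = 1.32e-07, limma). The values of stage 5 lay below those of stage 4 in both tissues, and the EP held far more of this transcript. In JS5 vs JS4, Cs5g25590 passed the FPKM filter through the JS4 libraries alone. It was called in the 3 fits that left out a JS5 library and was not tested when any JS4 library was left out. The largest negative difference was that of Cs5g04980, with -4.25 ± 0.40 (adjusted p = 5.31e-07, limma), since its EP level was low at both stages, with 0.567, 0.694 and 0.226 FPKM in EP5 and 0.713, 1.03 and 2.17 FPKM in EP4. Cs5g04980 also fell further in the JS than in the SM (difference -1.92, adjusted p = 0.0444, limma) and the AL (-1.87, adjusted p = 0.00760, limma). Its means were 24.1 FPKM in SM4 and 2.34 in SM5, and 11.8 in AL4 and 0.681 in AL5. The JS started higher, with a mean of 55.1 FPKM in JS4. On log2(FPKM + 1), the size of a fall towards 0 is limited by the starting level. Of the 413 called genes whose change differed from that of the EP, 126 rose in the JS with a negative EP change. Another 89 fell in the JS with a positive EP change. As for the AL, these changes were taken by sign only, and no count over all genes was made.

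The change was called and larger in size in the JS than in each of the 3 other tissues for 16 genes, 3 that rose and 13 that fell. This count leans on the same JS libraries that called the genes, and it was not made over all genes. A gene near 0 FPKM in another tissue cannot fall further there. Apart from Cs5g04980, the levels of the 13 in the other tissues were not compared. The 3 that rose, named after their values were seen, were Cs1g19430, Cs6g10240 and Cs9g06210, with changes of 1.58, 1.56 and 1.05. Cs6g10240 was called in all 6 fits that left out a library. Cs1g19430 and Cs9g06210 were no longer tested when any JS5 library was left out, and Cs9g06210 also lost its call without JS4 replicate 2. All 3 were weak genes, at JS4 means of 0.0686, 1.66 and 0.579 FPKM. The 13 that fell included Cs5g04980, and the strongest in JS4 were Cs6g11720, with a mean of 137 FPKM, and Cs1g02900, with a mean of 125 FPKM, which fell by 1.03 and 1.29 on the log2 scale. Cs1g02900 was called in all 6 fits that left out a library. Cs6g11720 lost its call without JS5 replicate 1 or JS4 replicates 2 or 3 and after median-ratio scaling (adjusted p = 0.0570, limma). Among the 13, Cs1g14680, Cs2g16140, Cs3g16770, Cs4g19810, Cs7g22710, Cs8g02920 and orange1.1t02101, also named after their values were seen, were weak. Their means were 2.44 to 8.39 FPKM in JS4 and under 1 FPKM in JS5. None of them was tested when any JS4 library was left out. Cs3g16770 and Cs4g19810 also lost their calls without JS5 replicate 1.

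The JS label was checked with genes enriched in a tissue at stages 1, 2, 3 and 6, at least 4-fold above each other tissue and at 10 FPKM or more on average. The 26 JS-enriched genes all reached 1 FPKM in each JS5 and JS4 library and summed to 2660 to 2811 FPKM in JS5 and 2625 to 2813 FPKM in JS4, against 491 to 835 FPKM in the SM, 340 to 471 in the AL and 180 to 362 in the EP at the same stages. The sums of JS5 and JS4 overlapped (exact permutation test, p = 1). Of the 26, 1 rose (3.85%) and 4 fell (15.4%), with a median change of -0.20, beside 6.63%, 8.4% and -0.11 over all genes. The riser was orange1.1t01749, with 180, 162 and 171 FPKM in JS5 and 91.4, 118 and 114 FPKM in JS4 (0.67 ± 0.14, adjusted p = 0.0217, limma), with a mean of 49.1 FPKM at stage 1 and 247 FPKM at stage 6. Its call was lost without JS5 replicates 1 or 2 or JS4 replicates 2 or 3. The largest fall was that of Cs2g12570, with 3.12, 3.92 and 3.40 FPKM in JS5 and 12.5, 11.3 and 12.1 FPKM in JS4 (-1.53 ± 0.16, adjusted p = 0.00250, limma). This gene had a mean of 23.3 FPKM at stage 3 and 1.73 FPKM at stage 6, so its stage 6 mean was lower still. The other 3 that fell were Cs3g18120, Cs6g16160 and orange1.1t00275, by 1.29, 0.86 and 0.61 on the log2 scale, and orange1.1t00275 was not called after median-ratio scaling (adjusted p = 0.137, limma).

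Genes enriched in the neighbouring tissues were present in the JS at both stages. The 10 SM-enriched genes summed to 124, 93.0 and 50.0 FPKM in JS5, against 314, 83.8 and 78.8 FPKM in JS4 (exact permutation test, p = 0.7), so JS4 replicate 1, a library that stood apart, held the most. Nearly all of each sum came from a single gene, Cs1g17500, with 119, 89.3 and 46.0 FPKM in JS5 and 308, 77.8 and 75.2 FPKM in JS4. The SM libraries held 381 to 853 FPKM of them. Of the 10, 3 to 5 members in each JS library were listed at 0, beside 4 to 6 in each SM5 library. In each SM4 library it was 0 to 2. Many members were thus absent from the SM itself at stage 5. Of the 4 that were tested, 1, Cs6g11590, fell (-0.67, adjusted p = 0.0450, limma). Cs6g11590 passed the FPKM filter through the JS4 libraries alone. Its call was lost in each fit that left out a JS5 library, and it was not tested when any JS4 library was left out. The 5 AL-enriched genes summed to 75.9 to 99.0 FPKM in JS5, against 42.4 to 46.3 FPKM in JS4 (exact permutation test, p = 0.1), almost all of it from orange1.1t01523. This gene rose by 1.17 ± 0.14 (adjusted p = 0.00387, limma), with 84.9, 90.5 and 69.4 FPKM in JS5 and 34.9, 33.9 and 38.1 FPKM in JS4. The 409 EP-enriched genes summed to 2501 to 2857 FPKM in JS5 and 2042 to 2235 FPKM in JS4 (exact permutation test, p = 0.1), against 31091 to 45197 FPKM in the EP libraries. Of the 182 tested, 41 rose (22.5%) and 29 fell (15.9%), beside 6.63% and 8.4% over all genes, with a median change of 0.06. The part of the other tissues' RNA in the JS results was not tested.

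Some called genes had successive IDs. Runs of at least 3 tested genes with successive IDs called in the same direction numbered 3 among the higher genes, with 10 genes, and 20 among the lower genes, with 62 genes. How many such runs would arise by chance was not tested, so these counts are a description only. The longest was a run of 5 lower genes from Cs2g22770 to Cs2g22820, which held the gene with the largest fall, Cs2g22800. Their changes ran from -3.57 to -5.07, their lengths from 812 to 1267 bases, and the single ID between them that was not tested, Cs2g22780, was listed at 0 in all 6 libraries. Cs2g22770 had 0.433, 0.416 and 3.65 FPKM in JS5 and 19.6, 42.0 and 144 FPKM in JS4. Cs2g22790 had 0.733, 0.195 and 8.27 FPKM in JS5 and 44.0, 27.8 and 128 FPKM in JS4. Cs2g22810 had 1.45, 1.46 and 9.06 FPKM in JS5 and 44.5, 44.0 and 137 FPKM in JS4, and Cs2g22820 had 9.36, 6.36 and 18.2 FPKM in JS5 and 73.9, 113 and 284 FPKM in JS4. In each of these genes replicate 3 was the highest at both stages.

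Over all stages, replicate 3 was the highest in 26 of the 30 gene and stage pairs of this run in the JS, in every pair of stages 1 to 5, against 22 of 30 in the SM, 8 of 30 in the AL and 14 of 30 in the EP. The changes of the 5 genes were also negative in the other tissues, from -2.82 to -1.49 in the SM, from -5.29 to -3.49 in the AL and from -3.52 to -2.25 in the EP, and none of the differences from the JS was called (lowest adjusted p = 0.444, limma). Cs2g22770 lost its call without JS5 replicate 1, and Cs2g22790 without JS5 replicate 1 or JS4 replicate 3. When replicate number entered the fit as a block, the adjusted p of these genes lay between 0.00028 and 0.00070 (limma). Reads that near-identical neighbours share could not be checked from FPKM values, so the 5 genes may not be separate measurements.

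**Figure D5:**
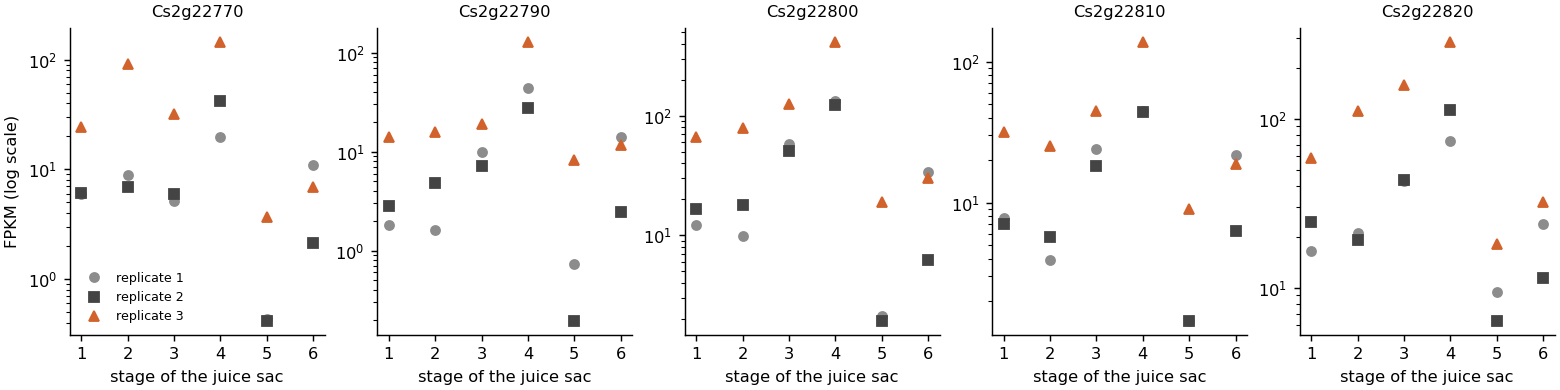
FPKM on a log scale at stages 1 to 6 of the juice sac in 5 genes with successive IDs, from Cs2g22770 to Cs2g22820; each point is a library, and the shape gives its replicate number. The 5 panels share a course, with the highest values at stage 4 and the lowest at stage 5, and replicate 3 (triangles) lies above the others at stages 1 to 5.

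The called genes were spread over the ID groups. From Cs1g to Cs9g the share of higher genes ran from 6.23% to 8.05% and that of lower genes from 7.72% to 10.1%, and among the 2012 genes of the orange1.1t group it was 6.41% and 7.85%. The 514 genes with other IDs had fewer higher genes (4.28%) and more lower ones (11.3%). Genes with lower levels in JS5 were shorter (median length 1502 bases) than those with higher levels (1696 bases), beside 1744 bases for all tested. In the shortest of 3 length classes of equal size 6.09% were higher and 11.0% lower, in the middle class 8.27% and 8.89%, and in the longest 5.51% and 5.35%. Without JS5 replicate 3 and JS4 replicate 1 the share of lower genes was 29.3% in the shortest class, 31.6% in the middle and 42.2% in the longest, so the order of the classes turned round. By level, the weakest class (mean FPKM up to 5.80) had 5.11% higher and 8.89% lower genes, and the strongest (mean FPKM from 20.2) had 9.43% higher and 8.33% lower genes. The RNA integrity numbers noted above also differed between the groups, and their part in these shares was not tested.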

How the data were processed

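Poly(A) RNA of hand-dissected tissues was sequenced as paired ends in 72 libraries, of which the 3 JS5 and 3 JS4 libraries were compared here. The authors filtered the reads for adapters and quality, mapped them to the C. sinensis genome with TopHat, and deposited FPKM values, 1 per gene and library, computed with HTSeq. HTSeq 0.6.1, TopHat2 and Cufflinks are the tools in the submitters' processing notes, and the strand setting is not given in the sources used here. The authors tested counts with DESeq2, and those counts were not used here.

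FPKM values were tested as log2(FPKM + 1) by limma (version 3.58.1, under R 4.3.3), whose eBayes step used the trend and robust options. A gene was tested when 3 or more of the libraries compared listed it at 1 FPKM or above. Genes with a Benjamini-Hochberg adjusted p under 0.05 were called. JS5 vs JS4 and JS6 vs JS3 were fitted on 6 libraries each, and the tissue differences on the 24 libraries of stages 4 and 5, taken as independent though the tissues share trees. Replicates were groups of 3 trees, so p-values measure the spread between these groups. Single values were compared by exact permutation, two-sided. All 72 columns were matched to samples by name.

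Fragments per gene were recovered from the steps of the FPKM values: they came out whole within 0.0001 for 27759 of 27759 genes above 0, and gave the depths, the gene lengths and limma-voom as an alternative. The fits were tested on simulated data. Python 3.11.15 with pandas 2.3.3, numpy 2.4.6 and matplotlib 3.10.9 made the tables and figures.

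The genes, lists and tests were chosen with earlier results of these data known. Named genes were the 2 highest and 2 lowest changes among called genes with no overlap and a mean of at least 10 FPKM, the 2 rising and 2 falling genes of highest level, the largest difference in each direction from each tissue, the 2 in each direction called the other way in JS6 vs JS3, and the largest rise and fall among JS-enriched genes. Other names are marked as chosen after their values were seen, or belong to a list or run given in full. Lists by gene function were not run, because 0 of the 30940 IDs matched the reference table, and no sequence is shown for the same reason.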

Additional observations from a re-analysis of the deposited data

Results flagged for a closer look

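The change between stage 5 and stage 4 was tested as a difference between the JS and each other tissue, and these differences are given again because 2 tissues of the same fruits differed under the same contrast. Genes with a called difference numbered 50 against the SM, 1324 against the AL and 1535 against the EP (limma, 24 libraries). Among genes also called in JS5 vs JS4, with no overlap there and a mean of at least 10 FPKM in a group, the extremes against the SM were Cs2g28140, with a difference of 1.73 on the log2 scale, and Cs6g17190, with -2.55. Against the AL they were Cs3g25010, with 4.06, and Cs7g27685, with -4.36. Against the EP they were Cs5g25590, with 4.15, and Cs5g04980, with -4.25.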

How the results depend on the processing

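The number of genes called in JS5 vs JS4 (2257) stayed within 1.5 times under 8 of the settings tried: a pseudocount of 0.1 (2196), no filter (2006), an FPKM of at least 5 (1755), median-ratio scaling (2254), all 18 JS libraries (3070), all 72 libraries (2805), limma-voom on recovered fragments (2085) and no trend or robust setting (2233). Leaving out a library in turn gave 490 to 3152, and leaving out JS5 replicate 3 and JS4 replicate 1 together, chosen after the data were seen, gave 7116. In JS6 vs JS3, leaving out a library gave 6489 to 9080. The difference from the SM was called for 26 genes with a pseudocount of 0.1, 79 with no filter and 29 to 118 without a library, and passed 1.5 times without SM4 replicate 2 (118), JS5 replicate 1 (29), SM5 replicate 2 (30) or JS4 replicate 2 (31). The difference from the AL was called for 756 genes in the 12 libraries of the 2 tissues and for 719 to 2223 without a library, and passed 1.5 times without JS5 replicates 1 (719), 2 (744) or 3 (2223), AL5 replicates 1 (789) or 2 (873) or AL4 replicate 3 (2049). The difference from the EP was called for 953 genes with a pseudocount of 0.1 and for 1118 to 1603 without a library. The cause of these shifts was not tested.

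The replicate number as a block gave 1693 calls in JS5 vs JS4, 8590 in JS6 vs JS3, and 56, 1401 and 1591 for the differences from the SM, AL and EP. Same-numbered JS5 and JS4 libraries deviated from their group means with correlations of 0.188, -0.403 and 0.18, and not every library correlated best with its own number. Each replicate was a group of 3 trees sampled at both stages, but no source used here says that a number marks the same group at each stage, so the block was kept as an alternative. Of 463 values of named genes under these settings 397 kept their direction and call, 66 kept their direction and lost the call, and 0 reversed. Fits in which a gene was no longer tested, such as those of Cs5g25590 without a JS4 library, are not among the 463. The genes had been chosen as called, so no call could be gained. Outside the fits that left out a library, calls were lost for Cs2g28140, Cs4g02570, Cs6g10280, Cs6g17190, Cs7g27685, Cs7g32220, orange1.1t01749 and orange1.1t02556. The median change of the SM-enriched list (-0.46, 4 genes) was 0.42 for its 1 tested gene at 8-fold and 0.08 for 2 genes without JS5 replicate 3 and JS4 replicate 1. With 3 libraries a group, single libraries moved the count as given above, while a floor of 5 FPKM in place of 1 kept it within 1.5 times. The part of the differences in RNA integrity, GC content and mapped share between JS5 and JS4 was not tested.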
